A study of Mus musculus with 9 samples.

Results

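The lipin genes Lpin1, Lpin2 and Lpin3 were followed in a chromatin immunoprecipitation and sequencing (ChIP-seq) study of the nuclear receptor NR4A2 in mouse heart ventricle. A genomic region was counted as a lipin region when it touched the RefSeq span of one of these genes (build GRCm38) extended by 10 kb on each side. This gave 11 of 16884 regions, of which 9 lay at Lpin1, 1 at Lpin2 and 1 near Lpin3. The tested mice, Nr4a2-icTg, carry a conditional Nr4a2 knock-in at ROSA26 together with a tamoxifen-inducible Cre recombinase under the Myh6 (αMHC) promoter, so that NR4A2 is switched on in cardiomyocytes only after tamoxifen. Their control littermates carry the same inducible Cre, αMHC-MerCreMer, without that induced NR4A2. Mice of both groups were 8 to 9 weeks old, received 1 injection of tamoxifen at 40 mg/kg and were studied at day 3, with 3 mice in each group. The antibody was clone 9D12, and the controls show what it recovers from hearts with their own NR4A2 alone.

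Lipins are phosphatidate phosphatases. They convert phosphatidate to diacylglycerol, the branch point from which cells make triacylglycerol for storage and phosphatidylcholine and phosphatidylethanolamine for membranes. Lipin 1, the product of Lpin1, is the main lipin of heart and skeletal muscle, and in mouse liver it also acts in the nucleus as a coactivator beside PGC-1α and PPARα. Lipin 2 is known from liver and brain, and loss of LPIN2 causes the inflammatory Majeed syndrome in humans. Lipin 3 is the least studied of the family. NR4A2 belongs to a family of nuclear receptors that can bind DNA as monomers at the NBRE motif, AAAGGTCA.

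For each mouse and region the authors deposited a CPM value, in which reads are scaled so that libraries of unequal depth can be compared. The regions were chosen by the reads that piled up there in these same libraries, so the presence and level of a region are not results. Reads in regions numbered 637635 to 1035856 in the Nr4a2-icTg libraries and 549700 to 1027394 in the control libraries, and 1 read was worth 0.955 to 1.81 CPM. A log2 fold change is the mean log2(CPM + 1) of Nr4a2-icTg minus that of control hearts, given with its standard error, and adjusted p-values come from limma fitted over all 16884 regions with Benjamini-Hochberg adjustment. The genes were chosen with earlier results of these data known, so these p-values place each region in that fit and are not independent support. The signal of whole ventricle cannot tell more bound cells from more binding per cell.

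The promoter windows bear on where the regions lie, since the region at Lpin2 covers a start site, the region near Lpin3 covers the start site of its neighbour Zhx3, and the window of Lpin1 holds no region. The 3 windows below are from RefSeq, build GRCm38.p6, each of 300 bases around an annotated start. They were searched on both strands for the NBRE AAAGGTCA, its core AGGTCA, the ERR element TCAAGGTCA, the DR1 element (the core repeated after 1 base), the glucocorticoid response element, the E box CACGTG, the sterol response element and the GC box GGGGCGGGG. The core lies within the NBRE, the ERR element and the DR1 element. Capitals mark the matches.
Lpin1, chr12:16610917-16611216, minus strand: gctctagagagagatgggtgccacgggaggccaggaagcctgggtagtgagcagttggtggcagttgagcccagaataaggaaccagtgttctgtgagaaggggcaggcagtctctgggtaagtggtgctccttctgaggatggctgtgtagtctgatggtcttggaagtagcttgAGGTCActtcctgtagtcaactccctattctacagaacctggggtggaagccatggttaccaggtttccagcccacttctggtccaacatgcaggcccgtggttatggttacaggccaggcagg
Lpin2, chr17:71183282-71183581, plus strand: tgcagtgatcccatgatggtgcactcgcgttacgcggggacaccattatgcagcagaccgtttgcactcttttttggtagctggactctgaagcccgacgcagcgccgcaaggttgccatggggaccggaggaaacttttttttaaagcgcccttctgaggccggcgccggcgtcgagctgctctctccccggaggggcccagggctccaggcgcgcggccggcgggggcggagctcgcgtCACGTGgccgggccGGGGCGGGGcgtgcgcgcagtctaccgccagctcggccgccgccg
Zhx3, chr2:160872941-160873240, minus strand: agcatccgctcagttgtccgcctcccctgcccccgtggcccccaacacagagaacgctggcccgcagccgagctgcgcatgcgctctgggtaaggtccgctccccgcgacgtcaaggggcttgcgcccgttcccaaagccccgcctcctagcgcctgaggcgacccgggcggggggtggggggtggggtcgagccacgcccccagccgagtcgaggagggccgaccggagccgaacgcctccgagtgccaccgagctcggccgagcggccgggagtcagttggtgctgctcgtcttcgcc
The Lpin1 window holds the core AGGTCA at bases -74 to -69, with the start counted as 0, and no region in the deposited table touches the window. The core is found in 16.3% of the 32851 promoter windows of the table, the NBRE in 1.51% and the ERR element in 0.423%. The DR1, glucocorticoid and sterol response elements are rarer, at 0.0396%, 0.00913% and 0.0913%, and the 3 windows hold none of them. The Lpin2 window holds an E box at -9 to -4 and a GC box at 5 to 13, motifs found in 7.15% and 11.4% of windows. The Zhx3 window holds none of the motifs. These matches describe the letters of the windows and do not show binding. The sequences of the Lpin1 regions themselves were not analysed here.

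At Lpin1, NR4A2 ChIP signal was higher in Nr4a2-icTg hearts in 6 of 9 regions and lower in none. Of all 16884 regions, 14.7% were called higher and 3.17% lower. Summed over the 9 regions, Lpin1 held 335, 485 and 373 CPM in the Nr4a2-icTg mice, against 134, 189 and 163 CPM in the control mice. The sums of the groups do not overlap, and the ratio of their means was 2.46. Of the 9 regions, 8 had a log2 fold change above 0, as did 45.3% of all regions, and their median was 1.59, against -0.06 over the whole table. All 9 regions lie inside the 118.2 kb span of Lpin1 (chromosome 12, 16535669 to 16653903, minus strand), and the numbers 1 to 9 used here run from its 3′ end to its 5′ end. The annotation used gives the span of the gene but no exons, so exon and intron are not told apart. The deposited interval numbers at Lpin1 run from 3714 to 3724, but 3719 and 3721 have no row. By number, 3719 falls between regions 5 and 6, which lie on either side of the start site. What the missing rows held is not known, so the 9 regions may not be all that were found.

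**Figure D1:**
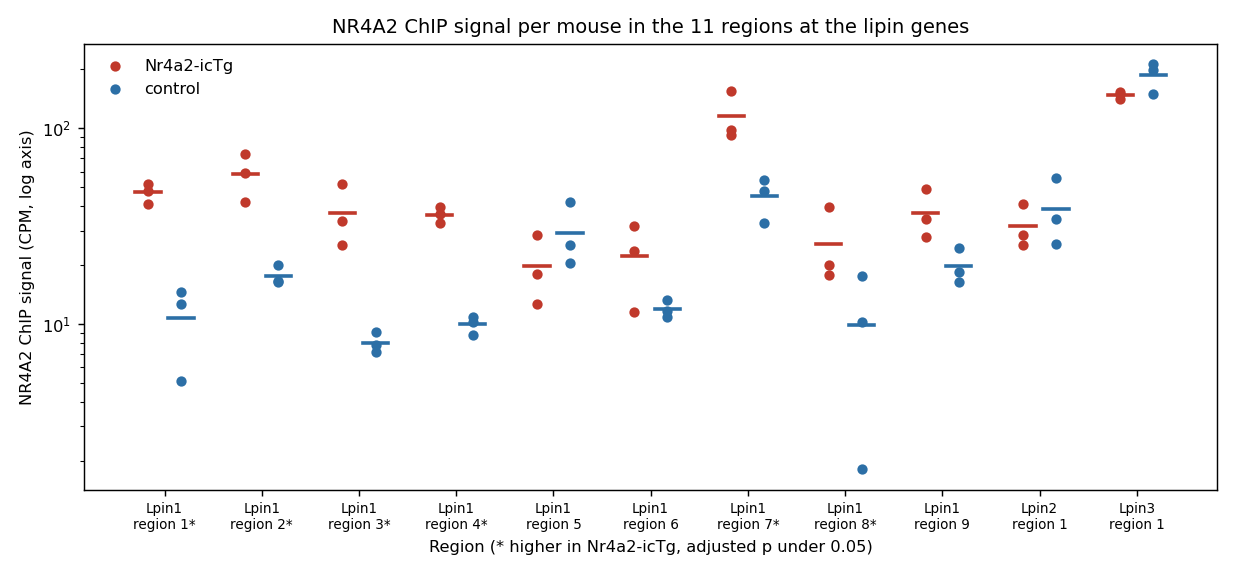
NR4A2 ChIP signal in CPM (log axis) of each of the 3 Nr4a2-icTg mice (red, left) and 3 control mice (blue, right) in the 11 lipin regions, with a bar at each mean. In the 6 starred Lpin1 regions, and in region 9 without a star, every Nr4a2-icTg mouse lies above every control mouse. This holds for 19.9% of all regions, and a call favours such regions. The groups overlap at Lpin2 and Lpin3.

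The strongest of the 6 higher regions was Lpin1 region 7 (chromosome 12, 16643445 to 16644566, 1122 bp), whose centre lies 9.9 kb from the 5′ end of the span. It held 98.3, 154 and 92.1 CPM in the Nr4a2-icTg mice, against 32.8, 47.7 and 54.3 CPM in the control mice. The lowest Nr4a2-icTg mouse thus stood well above the highest control mouse. The means were 115 ± 34.4 CPM in Nr4a2-icTg hearts and 44.9 ± 11 CPM in control hearts (SD, n = 3 each), a log2 fold change of 1.33 ± 0.24 (SE, limma adjusted p = 1.81e-05). Of the 6 higher regions it had the highest signal in control hearts and the smallest fold change.

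Near the 3′ end, a pair of regions 490 bp apart was higher in Nr4a2-icTg hearts. Lpin1 region 1 (chromosome 12, 16551331 to 16551666) held 41.1, 52.0 and 47.9 CPM in the Nr4a2-icTg mice, against 5.12, 12.7 and 14.5 CPM in the control mice. Its log2 fold change of 2.13 ± 0.42 (limma adjusted p = 6.13e-05) was the largest of the lipin regions. It rests on few control reads, 5, 13 and 8 in the 3 control libraries. Lpin1 region 2 (chromosome 12, 16552157 to 16552837) held 42, 74.1 and 59.3 CPM in the Nr4a2-icTg mice, against 16.4, 16.5 and 19.9 CPM in the control mice. The control mice lie close together there, and the log2 fold change was 1.64 ± 0.35 (limma adjusted p = 0.000187).

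Regions 3 and 4 lie in the middle of the gene, 82.5 and 69.8 kb from the 5′ end. Lpin1 region 3 (chromosome 12, 16571231 to 16571570) held 33.4, 25.2 and 51.7 CPM in the Nr4a2-icTg mice, against 7.17, 7.79 and 9.05 CPM in the control mice. Its control mean, 8.00 CPM from 7, 8 and 5 reads, was the lowest of the 11 lipin regions, and the log2 fold change was 2.01 ± 0.47 (limma adjusted p = 0.000656). Lpin1 region 4 (chromosome 12, 16583953 to 16584322) held 36.3, 39.4 and 32.8 CPM in the Nr4a2-icTg mice, against 10.2, 8.76 and 10.9 CPM in the control mice. Both groups were tight, and the log2 fold change was 1.76 ± 0.44 (limma adjusted p = 0.00159).

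Lpin1 region 8 (chromosome 12, 16645565 to 16645914), 998 bp from region 7, passed the threshold by less. It held 20.1, 39.4 and 17.7 CPM in the Nr4a2-icTg mice, against 10.2, 17.5 and 1.81 CPM in the control mice. The lowest Nr4a2-icTg mouse lies just above the highest control mouse, and control mouse 3 had 1 read. The log2 fold change was 1.59 ± 0.56 (limma adjusted p = 0.0347), but 0.80 with an adjusted p of 0.309 without control mouse 3. Nor did it pass without Nr4a2-icTg mouse 1, 2 or 3 (adjusted p = 0.0733, 0.236 and 0.0662), with edgeR (0.0900) or with DESeq2 (0.164), so the firm count at Lpin1 is 5 regions.

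The 3 Lpin1 regions that did not pass differ among themselves. Lpin1 region 9 (chromosome 12, 16646661 to 16647057), 746 bp beyond region 8, held 34.4, 48.9 and 27.7 CPM in the Nr4a2-icTg mice, against 18.4, 24.3 and 16.3 CPM in the control mice. Its groups do not overlap, as in 19.9% of all regions in this direction, and its log2 fold change was 0.86 ± 0.38 (limma adjusted p = 0.113). Lpin1 region 6 (chromosome 12, 16629928 to 16630301) held 11.5, 23.6 and 31.5 CPM in the Nr4a2-icTg mice, against 13.3, 11.7 and 10.9 CPM in the control mice. Nr4a2-icTg mouse 1 lay within the control range there, and the log2 fold change was 0.74 ± 0.49 (adjusted p = 0.333).

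Lpin1 region 5 is the exception in direction. It lies 5183 bp from region 4 (chromosome 12, 16589506 to 16589781) and held 18.1, 28.4 and 12.6 CPM in the Nr4a2-icTg mice, against 20.5, 41.9 and 25.3 CPM in the control mice. The groups overlap, and the log2 fold change of -0.55 ± 0.41 did not pass (limma adjusted p = 0.399). Per kb of its length it had the highest control signal of the Lpin1 regions, 71.4 CPM per kb in Nr4a2-icTg hearts and 106 CPM per kb in control hearts. Region 4 beside it had 97.7 CPM per kb in Nr4a2-icTg hearts and 26.9 CPM per kb in control hearts.

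**Figure D2:**
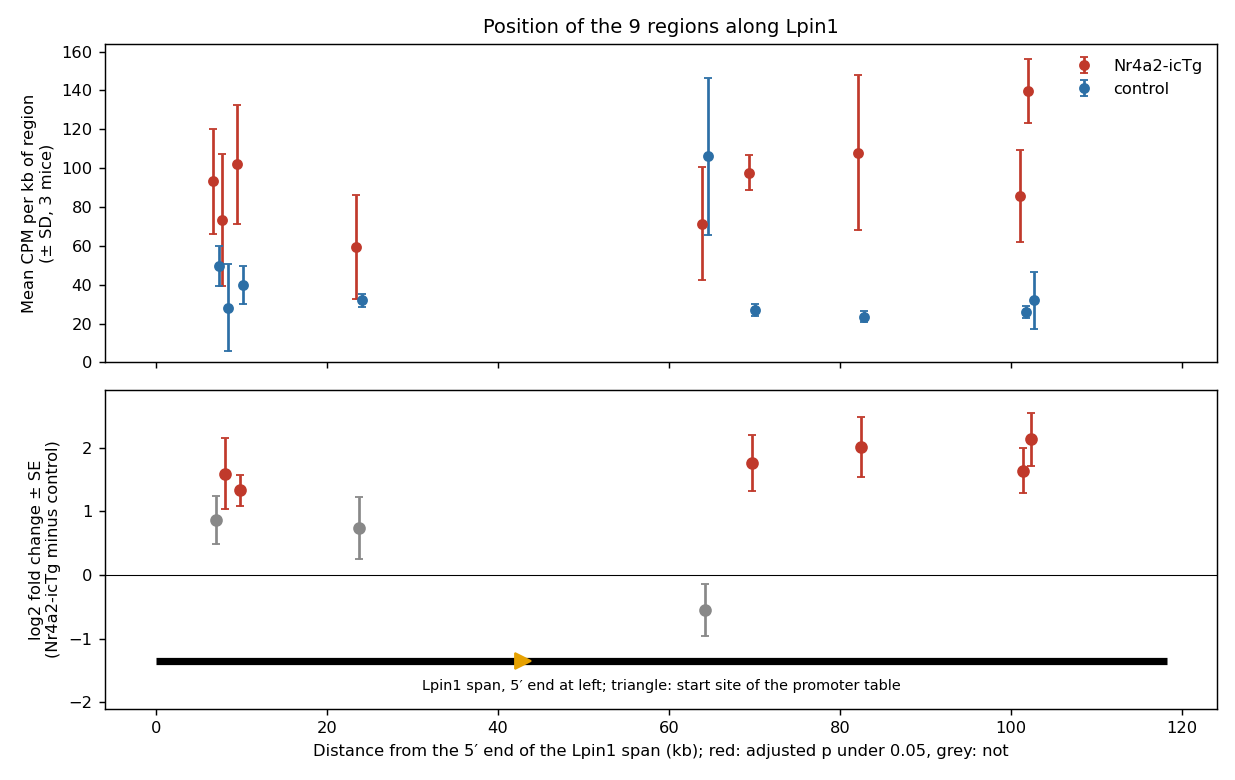
Upper panel, mean CPM per kb of region (± SD, 3 mice) in Nr4a2-icTg hearts (red) and control hearts (blue), and lower panel, log2 fold change ± SE, of the 9 Lpin1 regions against distance in kb from the 5′ end of the span. The 6 higher regions (red in the lower panel) lie 69.8 to 102 kb and 8.16 to 9.9 kb from that end, and none of the 9 lies at the marked start site.

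The 6 higher regions resembled each other once their length was allowed for. Their mean signal was 73.4 to 139.9 CPM per kb in Nr4a2-icTg hearts and 23.5 to 40.0 CPM per kb in control hearts, with ratios of means of 2.56 to 4.60. Their log2 fold changes stood at the 87.4th to 94.8th percentile of all regions, so they were raised but not among the extremes of the table. Nr4a2-icTg mouse 2 had the highest value in 5 of the 6, and mouse 3 in the other. Regions called higher across the genome had a median of 38.8 CPM in Nr4a2-icTg hearts and 9.70 CPM in control hearts, with a median log2 fold change of 1.87. Regions 1, 3, 4 and 8 of Lpin1 had control means of 8.00 to 10.8 CPM, near that median, whereas regions 2 and 7 started from 17.6 and 44.9 CPM.

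The higher regions fall on both sides of the start site in the promoter table. Regions 1 to 4 lie 59.5, 58.5, 39.6 and 26.8 kb downstream of it. Regions 7 and 8 lie 33.0 and 34.8 kb upstream of it, within the longer span that RefSeq gives the gene. Regions 7, 8 and 9 also lie within 10 kb of Ntsr2, a neurotensin receptor gene whose span overlaps the 5′ end of Lpin1 and which has no other region. Summed over these 3 regions the signal was 153, 243 and 137 CPM in the Nr4a2-icTg mice, against 61.5, 89.5 and 72.4 CPM in the control mice, a ratio of means of 2.39. The 6 regions near no other protein-coding gene had a ratio of 2.52, from 182, 243 and 236 CPM in the Nr4a2-icTg mice, against 72.7, 99.3 and 90.5 CPM in the control mice. These 6 lie on both sides of the start site, since region 6 is 19.1 kb upstream, and the difference between the ratios was not tested.

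**Figure D3:**
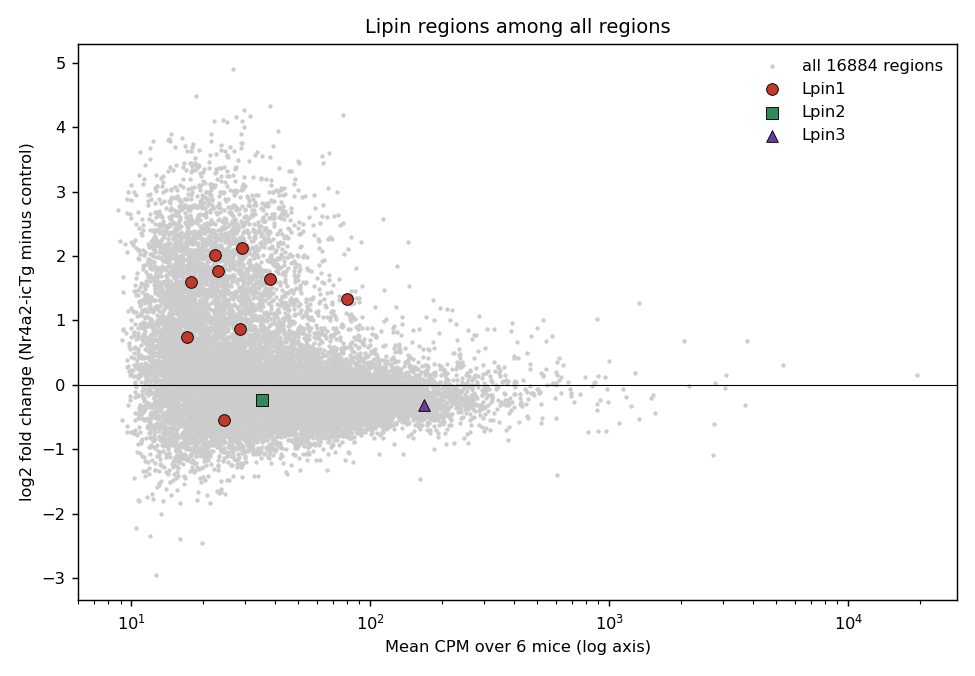
Log2 fold change (Nr4a2-icTg minus control) against mean CPM over 6 mice (log axis) for all 16884 regions (grey) and the lipin regions. The Lpin1 regions (red circles) lie above 0 in 8 of 9 cases, while the single regions at Lpin2 (square) and Lpin3 (triangle) lie just below 0.

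Many higher regions at 1 gene were rare. At least 6 higher regions were found at 6 of the 11151 protein-coding genes that had any region, and those given here were named after their values were seen. Among them were Ttn, the sarcomere scaffold titin, with 9 of 183 regions, Cdhr3 with 7 of 9, Creb5 with 6 of 6, Lpin1 with 6 of 9, and Pfkm, muscle phosphofructokinase, with 6 of 12. Lpin1 had many regions, since 1.05% of genes had at least 9, and 53.1% had 1. The regions came from these same libraries, so the number at a gene was not fixed before the comparison. Among the 46 genes with 9 regions, 24 had no higher region and 2, Lpin1 included, had at least 6. Among 858 genes within 25% of the length of Lpin1, the median gene had 2 regions, and Lpin1 was the 1 gene with at least 6 higher regions. The cut of 6 is the count at Lpin1 itself and includes region 8, so with its firm count of 5 Lpin1 would not reach it. The calls at the other genes were not held to that stricter standard. The genes were selected with these folds known, so the rank is a description.

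The single region of Lpin2 did not pass the test. It (chromosome 17, 71183403 to 71183929) covers the first of 3 start sites in the promoter table, from base -129 to base 397, ends 49 bases before the next, and takes in 179 of the 300 bases of the window printed above. It held 41.1, 28.4 and 25.2 CPM in the Nr4a2-icTg mice, against 25.6, 55.5 and 34.4 CPM in the control mice. The groups overlap, and the log2 fold change was -0.24 ± 0.34 (limma adjusted p = 0.702). The sign rested on control mouse 2, since without that mouse it was 0.05. No other region lies in the 66.3 kb span of Lpin2. Within 50 kb of it lie 2 more regions, both at Emilin2, an extracellular matrix gene. The nearer one, 18.7 kb away, held 30.6, 23.6 and 26.5 CPM in the Nr4a2-icTg mice, against 9.22, 20.4 and 7.24 CPM in the control mice. Its groups do not overlap, as in 19.9% of all regions in this direction, but its log2 fold change of 1.19 ± 0.47 did not pass (limma adjusted p = 0.0640).

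Lpin3 had no region inside its 25.3 kb span. The region counted for it (chromosome 2, 160872505 to 160873733, 1229 bp) lies 6937 bp before the gene and covers the whole promoter window of Zhx3, which encodes a zinc finger and homeobox repressor, so it cannot be credited to Lpin3. It held 140.4, 153 and 150.1 CPM in the Nr4a2-icTg mice, against 149.6, 199 and 212 CPM in the control mice. Control mouse 1 lay within the Nr4a2-icTg range, and the log2 fold change was -0.32 ± 0.18 (limma adjusted p = 0.232). Just outside the 10 kb limit, 10.9 kb from Lpin3 and inside Zhx3, a region (chromosome 2, 160869480 to 160869757) held 29.6, 26.8 and 45.4 CPM in the Nr4a2-icTg mice, against 10.2, 7.79 and 9.05 CPM in the control mice. That region was higher in Nr4a2-icTg hearts, with a log2 fold change of 1.77 ± 0.46 (limma adjusted p = 0.0026). Per kb, the start site region near Lpin3 had 120.2 CPM in Nr4a2-icTg hearts and 152 CPM in control hearts, and the Lpin2 region 59.9 CPM in Nr4a2-icTg hearts and 73.0 CPM in control hearts. Whether the contrast at Lpin1 differs from that at Lpin2 or Lpin3 was not tested.

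**Figure D4:**
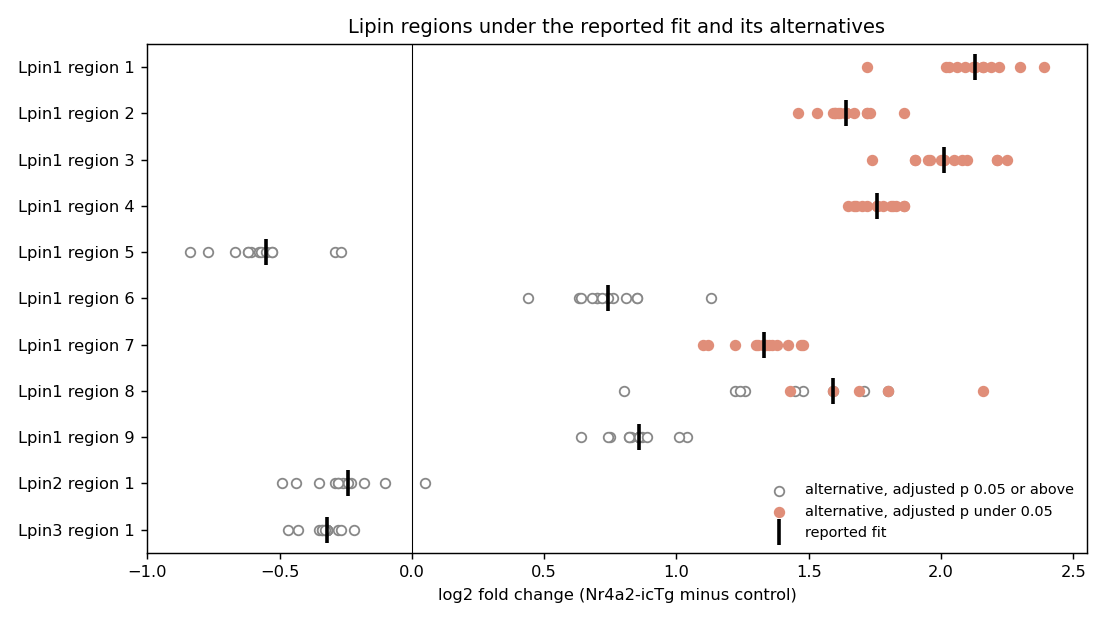
Log2 fold change of each lipin region in the reported fit (black bar) and under its alternatives (circles, filled where the adjusted p was under 0.05). Regions 1, 2, 3, 4 and 7 of Lpin1 stay to the right of 1 and filled, region 8 is filled in some alternatives only, and the Lpin2 region crosses 0 once.

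In the authors' deposited table, regions 1, 2, 3, 4 and 7 of Lpin1 are called up, as are 14.9% of all regions, with log2 fold changes of 1.36 to 2.21. The authors' deposited table gives region 8 a log2 fold change of 1.22 with an FDR of 0.0611 and calls it unchanged, along with every other lipin region.

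The regions most like Lpin1 region 7 were sought among 14861 regions near protein-coding genes, by the root mean square difference of log2(CPM + 1) over the 6 libraries. They lay at Ptpn3, a protein tyrosine phosphatase gene (difference 0.314), Ehd4, an endocytic trafficking gene (0.315), Myoz3, a Z-disc gene, and Synpo, which share 1 region (0.351), and Rasl11b (0.355). The Ptpn3 region held 95.5, 119.8 and 80.7 CPM in the Nr4a2-icTg mice, against 41.0, 34.1 and 43.4 CPM in the control mice. Their log2 fold changes were 1.15 to 1.29, a likeness that follows from the way they were picked.

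Genes on either side of the lipin step were examined in 5 lists. Of 91 genes, 78 had a region, 19 had at least 1 higher region in Nr4a2-icTg hearts and 8 at least 1 lower region, with Gpam in both counts and Plin4 and Plin5 sharing 1 lower region. These are 24.4% and 10.3% of the 78, against 14.2% and 6.24% of all genes with a region. By region, 5 of 23, 4 of 29, 3 of 30, 6 of 92 and 16 of 78 were higher, in the order below. Lower regions numbered 1, 0, 2, 2 and 2. Of all regions, 14.7% were higher and 3.17% lower. The lists were not tested against other genes, and the chance of a call grows with the number of regions of a gene. The median log2 fold change of the lists ranged from -0.21 to 0.16, against -0.06 over all regions.

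Upstream of the lipins, the acylation steps that build phosphatidate had a higher region at 3 of 9 genes and a lower one at 1, and their 23 regions had a median log2 fold change of 0.02. At Lclat1, a lysophospholipid acyltransferase, the region named averaged 30.4 ± 11.4 CPM in Nr4a2-icTg hearts and 3.28 ± 1.69 CPM in control hearts (log2 fold change 2.88 ± 0.63, limma adjusted p = 0.000283). At Gpam, the mitochondrial glycerol-3-phosphate acyltransferase that makes the first committed step, it averaged 27.5 ± 12.3 CPM in Nr4a2-icTg hearts and 3.61 ± 1.67 CPM in control hearts (2.62 ± 0.64, adjusted p = 0.0012). Gpam had 2 higher and 1 lower of 5 regions, and Lclat1 2 higher of 3. The lower Gpam region was the strongest of that gene, with 71.8 ± 17.6 CPM in Nr4a2-icTg hearts and 119 ± 16.3 CPM in control hearts (-0.74 ± 0.22, limma adjusted p = 0.00885). At the higher regions named, the control mice held 5.12, 2.92 and 1.81 CPM for Lclat1, and 5.12, 3.89 and 1.81 CPM for Gpam. In those libraries 1 read was worth 1.02, 0.973 and 1.81 CPM, so the size of both folds is uncertain. Gpat3, an endoplasmic reticulum enzyme of the same step, had 1 higher region of 3. That region averaged 59.5 ± 14.4 CPM in Nr4a2-icTg hearts and 18.9 ± 3.22 CPM in control hearts (1.59 ± 0.34, adjusted p = 0.000228). Agpat2, the next acyltransferase, had the strongest region of the list, 1437.4 ± 182 CPM in Nr4a2-icTg hearts and 1600.2 ± 272 CPM in control hearts, which is shared with Egfl7 and did not pass (-0.15 ± 0.14, adjusted p = 0.540). Abhd5, the lipase coactivator CGI-58, did not pass either (0.02 ± 0.20, adjusted p = 0.963).

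At the diacylglycerol step itself, 3 of 12 genes had a higher region and none a lower one, with a median log2 fold change of 0.16 over 29 regions. Plpp1 and Plpp3 encode membrane lipid phosphate phosphatases, which act on phosphatidate without belonging to the lipins. Plpp1 had 2 higher regions of 5. The one named averaged 56.0 ± 16 CPM in Nr4a2-icTg hearts and 18.7 ± 9.78 CPM in control hearts (log2 fold change 1.65 ± 0.37, limma adjusted p = 0.000469), and is also assigned to Mtrex. Plpp3 had 1 higher region of 5. That region averaged 25.7 ± 9.42 CPM in Nr4a2-icTg hearts and 8.69 ± 0.784 CPM in control hearts (1.41 ± 0.50, adjusted p = 0.0358). Its call ended with any 1 mouse but control mouse 3 left out (adjusted p up to 0.199). The strongest regions of Plpp1 (0.20 ± 0.25, adjusted p = 0.644) and of Plpp3 (-0.13 ± 0.20, adjusted p = 0.715) did not pass. Dgki, a diacylglycerol kinase that works in the reverse direction, had 20.5 ± 7.16 CPM in Nr4a2-icTg hearts and 1.86 ± 1.81 CPM in control hearts (3.12 ± 0.85, adjusted p = 0.00421). All 3 control libraries were under 3 reads there, so the size of that fold is uncertain, and without Nr4a2-icTg mouse 2 the call ended (adjusted p = 0.0719). Dgkq (-0.06 ± 0.22, adjusted p = 0.894) and Dgkh (-0.28 ± 0.23, adjusted p = 0.457) did not pass.

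Among the genes of phospholipid synthesis, 2 of 16 had a higher and 2 a lower region, with a median log2 fold change of -0.18 over 30 regions. Cds2, which turns phosphatidate into CDP-diacylglycerol and so competes with the lipins for substrate, had 2 higher regions of 7. The one named averaged 45.9 ± 5.30 CPM in Nr4a2-icTg hearts and 15.2 ± 5.52 CPM in control hearts (log2 fold change 1.58 ± 0.38, limma adjusted p = 0.00119). The strongest Cds2 region did not pass (0.20 ± 0.19, adjusted p = 0.531). Chpt1, a cholinephosphotransferase that uses diacylglycerol, had 1 higher region of 2. That region averaged 61.8 ± 10.8 CPM in Nr4a2-icTg hearts and 29.2 ± 12.9 CPM in control hearts (1.16 ± 0.32, adjusted p = 0.00499). Its call ended without Nr4a2-icTg mouse 3 or control mouse 3 (adjusted p = 0.0775 and 0.0817). The other Chpt1 region had more signal and did not pass (-0.44 ± 0.26, adjusted p = 0.261). The lower regions were near 2 genes of cardiolipin synthesis and remodelling, Ptpmt1 (-0.78 ± 0.22, adjusted p = 0.0068) and Taz, tafazzin (-0.60 ± 0.21, adjusted p = 0.0364). The region near Taz lies 9503 bp outside it at other genes, and its call ended without Nr4a2-icTg mouse 2 or 3 or control mouse 2 or 3 (adjusted p up to 0.255). The Ptpmt1 region is shared with Kbtbd4, and its call ended without Nr4a2-icTg mouse 1 (adjusted p = 0.0932). Cept1 (-0.09 ± 0.19, adjusted p = 0.791) and Chkb (-0.22 ± 0.21, adjusted p = 0.516) did not pass.

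All 18 genes of triacylglycerol stores and lipolysis had a region. A higher region was found at 4 of them (Cidea, Fitm1, Fitm2 and Cd36) and a lower one at 3 (Lpl, and Plin4 and Plin5, which share 1 lower region), and the median log2 fold change over 92 regions was -0.21. Cd36 had 1 higher region of 29, and its strongest region did not pass (log2 fold change 0.07 ± 0.18, limma adjusted p = 0.840). Cidea, a lipid droplet protein, averaged 28.6 ± 8.25 CPM in Nr4a2-icTg hearts and 4.84 ± 1.72 CPM in control hearts at a region 2254 bp outside the gene (log2 fold change 2.34 ± 0.57, limma adjusted p = 0.0012). The control mice held 4.1, 6.81 and 3.62 CPM there, so the size of that fold is uncertain. Fitm1 and Fitm2, which help lipid droplets form, had 1 and 2 higher regions of 5 each. The regions named had values of 1.78 ± 0.50 (adjusted p = 0.00641) and 1.54 ± 0.53 (adjusted p = 0.0288). Both calls ended without Nr4a2-icTg mouse 2 or 3 (adjusted p up to 0.108 and 0.179), that of Fitm2 also without control mouse 3 (0.0745). The other higher Fitm2 region, 2832 bp outside the gene and shared with Gdap1l1, averaged 113 ± 19.7 CPM in Nr4a2-icTg hearts and 60.3 ± 12.9 CPM in control hearts (0.90 ± 0.23, limma adjusted p = 0.00161). The strongest Fitm2 region did not pass (0.51 ± 0.20, adjusted p = 0.0562). The Fitm1 region lies 6156 bp outside that gene, near Psme1 and Dcaf11. Lpl, lipoprotein lipase, had 1 lower region of 16, with 10.2 ± 5.63 CPM in Nr4a2-icTg hearts and 26.4 ± 9.57 CPM in control hearts (-1.36 ± 0.50, adjusted p = 0.0433), a call lost without Nr4a2-icTg mouse 2 or 3 or control mouse 1 or 2 (adjusted p at most 0.264). Pnpla2, the triacylglycerol lipase ATGL, had 7 regions and no call (-0.09 ± 0.19, adjusted p = 0.803 for its strongest), and Plin3 had 3 and no call (-0.24 ± 0.19, adjusted p = 0.434).

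Of 23 genes that act on lipins or with them, 7 had a higher region and 2, Ctdnep1 and Pparg, a lower one, with a median log2 fold change of -0.04 over 78 regions. The lower region at Ctdnep1 lies 6191 bp outside it, near Dvl2, Gabarap and Phf23 (-0.64 ± 0.22, limma adjusted p = 0.0315). The strongest Ctdnep1 region did not pass (-0.16 ± 0.16, adjusted p = 0.545). Rptor encodes the mTORC1 subunit raptor, and mTORC1 phosphorylates lipin 1. It had 5 higher regions of 8, and the one named averaged 67.5 ± 17.6 CPM in Nr4a2-icTg hearts and 8.86 ± 4.8 CPM in control hearts (log2 fold change 2.87 ± 0.41, limma adjusted p = 4.6e-08). Ppargc1a, which encodes the lipin partner PGC-1α, had 2 higher regions of 8, the one named with 62.5 ± 16 CPM in Nr4a2-icTg hearts and 15.1 ± 1.35 CPM in control hearts (1.95 ± 0.35, adjusted p = 1.34e-05). Ppargc1b had 5 higher regions of 13 (1.93 ± 0.35, adjusted p = 1.51e-05 for the one named). The strongest regions of Rptor (0.13 ± 0.31, adjusted p = 0.833) and of Ppargc1b (0.02 ± 0.15, adjusted p = 0.953) did not pass. Btrc, a subunit of an SCF ubiquitin ligase, had 1 region, and it was higher (1.81 ± 0.45, adjusted p = 0.00162). The strongest regions of Ppara, the other nuclear partner of lipin 1 (-0.11 ± 0.18, adjusted p = 0.744), and of Esrra (-0.05 ± 0.17, adjusted p = 0.876) did not pass.

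**Figure D5:**
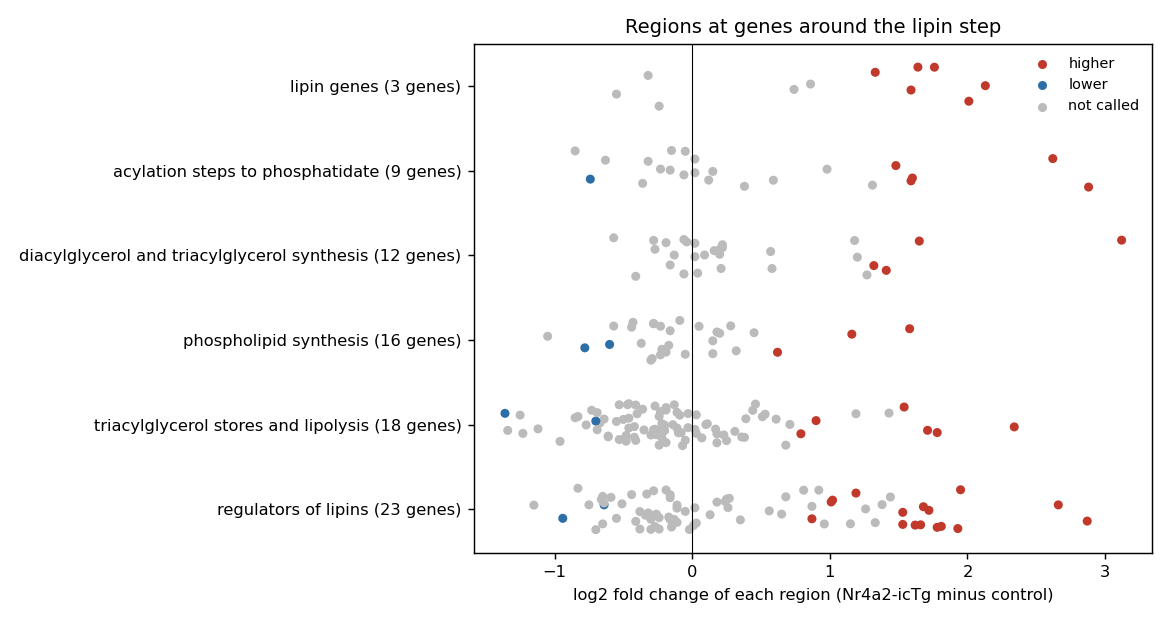
Log2 fold change (Nr4a2-icTg minus control) of every region at the lipin genes and at the 5 lists of genes around them, coloured red where called higher, blue where called lower and grey where not called; vertical scatter within a list has no meaning. The lipin row holds 6 red points among 11, all of them at Lpin1, while most points of the other lists lie near 0.

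Markers of the cell types of the heart were set beside these results. All 5 cardiomyocyte markers had a region, 4 with a higher one. Ryr2, one of the 4, also had a lower region, and Tnni3 had no call. All 3 regions of Actc1 were higher. The higher region at Myh6 lies 3833 bp outside it and is shared with Myh7. That at Tnnt2 lies 1442 bp outside it, near Lad1. The regions overlapping Myh6 (0.16 ± 0.14, limma adjusted p = 0.494) and Tnnt2 (-0.05 ± 0.15, adjusted p = 0.877) did not pass. Of all genes with a region, 14.2% had a higher and 6.24% a lower one. None of the 2 fibroblast, 2 macrophage and 3 adipocyte markers with a region had a call, and of 4 endothelial markers 2, Pecam1 and Tie1, had a lower region. ChIP signal of NR4A2 does not measure how many cells of a type were present, and the part of cell makeup in the Lpin1 result was not tested.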

How the data were processed

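NR4A2 ChIP-seq of 3 Nr4a2-icTg and 3 control hearts was used; the antibody test ChIP, its input and the pooled input were not analysed here. Each reaction held 30 µg of chromatin, 5.5 µg of antibody and a fly chromatin spike-in (200 ng with 0.4 µg of antibody), per the labels. BWA and build GRCm38 (mm10) are named in the submitters' processing notes; the sources used here do not name a peak caller, counter or filters. The authors deposited CPM per mouse, and their own log2 fold change, log2 mean CPM, FDR and p-value, per the file headers. Every CPM value (100% of values, tolerance 0.001 of a read) was a whole multiple of 1 read, and the scaling left beyond reads in regions was 0.989 to 1.01, so no shared change over all regions can be seen, and the sources used here do not say how the spike-in entered.

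As the values are CPM, limma 3.58.1 (R 4.3.3, trend and robust moderation) was fitted to log2(CPM + 1) over all 16884 regions with genotype alone in the model and low values kept; calls use a Benjamini-Hochberg adjusted p under 0.05. Alternatives were pseudocounts of 0.5 and 2, a filter at median signal, edgeR 4.0.16 and DESeq2 1.42.0 on the recovered reads, other scalings and moderation, a replicate block, 1 mouse left out, and gene spans extended by 0 or 50 kb. Genes and promoter windows are from RefSeq GRCm38.p6. The members, gene lists and tests were chosen with earlier results of these data known. All lipin regions are given. From each list the text names up to 4 genes with a called region, by largest absolute log2 fold change, and up to 2 without one, by highest mean CPM, and of likeness the 5 nearest genes. One gene with many higher regions is not reported here.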

Additional observations from a re-analysis of the deposited data

How the results depend on the processing

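Regions 1, 2, 3, 4 and 7 of Lpin1 kept their direction and their call under each alternative that could be fitted to them, with log2 fold changes of 1.72 to 2.39, 1.46 to 1.86, 1.74 to 2.25, 1.65 to 1.86 and 1.10 to 1.48. Region 8 kept its direction (0.80 to 2.16) and lost its call in 9 of 14 alternatives. Regions 5, 6 and 9 and the Lpin3 region kept their direction and were not called. Limiting the test to regions of at least median signal, which leaves out the weaker regions, gave 2 higher lipin regions, 481 higher and 235 lower regions in all, and 8 and 4 pathway genes with a higher or lower region. Of the lipin regions only regions 2 and 7 of Lpin1 and the Lpin3 region entered that fit, so the others were not tested in it. With no scaling there were 1398 and 14 regions and 11 and 0 genes; lower regions and genes numbered 251 and 4 with DESeq2, and 132 and 0 without trend and robust moderation. Median centring gave 1040 lower regions and moved the median log2 fold change of all regions from -0.06 to -0.17. No extension of the gene spans left 5 pathway genes with a lower region, and leaving out the regulators of lipins, chosen after seeing the data, left 12 with a higher one. With no scaling the calls named at Plpp3, Chpt1, Ptpmt1, Taz, Fitm1, Fitm2 and Lpl ended, as did those at Btrc, Chpt1, Ptpmt1, Taz, Fitm1 and Lpl without trend and robust moderation, and at Taz and Lpl with DESeq2, at Plpp3 with median centring and at Taz among regions of at least median signal. The cause of these changes was not tested. Extending spans by 50 kb gave a log2 ratio of summed CPM of 0.28 at Lpin2 and -0.11 at Lpin3, because regions of Emilin2 and Zhx3 enter.

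With 1 mouse left out, 5 to 6 lipin regions were higher and 0 lower, all regions higher numbered 1577 to 2332 and lower 270 to 454, pathway genes with a higher region 13 to 18 and with a lower one 3 to 9, and the log2 ratio of summed CPM was 1.13 to 1.42 at Lpin1, -0.52 to 0.07 at Lpin2 and -0.47 to -0.24 at Lpin3. The lowest counts of all regions came without Nr4a2-icTg mouse 3. Values that turned sign, none of them called, were 0.05 at Lpin2 without control mouse 2 (-0.49 to 0.05 with any mouse left out), 0.03 at Cept1 without Nr4a2-icTg mouse 2 (-0.25 to 0.03), 0.01 at Esrra without control mouse 3 (-0.14 to 0.01), and at Abhd5 (-0.09 to 0.22) 0.00 with DESeq2 and with no scaling, -0.09 with median centring, -0.05 without Nr4a2-icTg mouse 2, and -0.09 and -0.07 without control mouse 1 and 2. Mouse numbers are shared by the groups, and the labels do not say whether they pair mice. The correlation of deviations was -0.0658, 0.0609 and 0.0326 for mice 1, 2 and 3, which cannot settle this with 3 mice in each group. With the replicate block 6 lipin regions were higher and 0 lower, and 2540 and 580 of all regions. With 5 to 13 control reads per library in Lpin1 regions 1, 3, 4 and 6, and 1 to 18 in region 8, counting error limits how closely their folds are known.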
